A study of Homo sapiens with 12 samples.

Results

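The 10 genes described here encode the best known members of the BCL2 family, which governs the mitochondrial route of apoptosis: BCL2, BCL2L1, MCL1, BCL2A1, BAX, BAK1, BBC3, PMAIP1, BCL2L11 and BID. They were taken by gene symbol from the 20030 genes of an mRNA-seq table, and all 10 were found. The table covers 12 libraries of MOLM-13 and THP-1 cells, human acute monocytic leukemia lines that carry MLL rearrangements, with 3 libraries in each of 4 groups. MOLM-13 also carries an internal tandem duplication of the FLT3 receptor gene, while THP-1 has wild-type FLT3. In each line, control cells received DMSO and treated cells received Jiyuan oridonin A (JOA), a kaurene diterpenoid from the plant Isodon rubescens, and the sample records give 48 h for all 4 groups, although a figure legend of the study gives a longer incubation. The dose was 0.5 μM in MOLM-13 and 2 μM in THP-1, so the effects of line and dose cannot be told apart. Each group is 1 cell line, and no record states that the replicates were separate cultures, so the p-values below measure only the spread between these libraries.

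BCL2 family proteins decide whether the outer mitochondrial membrane is opened. BAX and BAK1 are the effectors that form pores in this membrane and release cytochrome c, after which caspases are activated. The anti-apoptotic proteins BCL2, BCL-XL (encoded by BCL2L1), MCL1 and BFL-1 (encoded by BCL2A1) hold the effectors and their activators in check. The BH3-only proteins, here PUMA (BBC3), NOXA (PMAIP1), BIM (BCL2L11) and BID, sense stress and neutralise the anti-apoptotic proteins or activate the effectors directly. In myeloid leukemia, BCL2 is the target of the drug venetoclax, and a high level of MCL1 is a known route of escape from it. Much of the control of these proteins acts on protein turnover, cleavage or location, which mRNA does not show.

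Levels are given as FPKM (mapped fragments per unit of exon length, scaled by library depth), a unit that accounts for gene length, so that genes can be set side by side within a library. The annotation that set these lengths is not given. The order, shares and ratios of different genes below therefore depend on lengths that could not be checked. Total read numbers cannot be had from FPKM. Within a line, every pair of libraries correlated at r = 0.990 to 0.995 in MOLM-13 and 0.987 to 0.993 in THP-1, across genes on the log2 scale. Of 12 myeloid marker genes, 11 reached a mean of 1 FPKM in each group. Of 10 markers of other cell types, 1 to 3 did so, and the highest of these was PECAM1, which monocytes also express. Another, KRT18, read 6.83 to 8.20 FPKM in MOLM-13 controls and 6.83 to 6.93 with JOA. In THP-1 KRT18 read 0.101 to 2.35 FPKM in controls and 0.0810 to 0.684 with JOA. The T cell gene CD3D was listed at 0 in every THP-1 library and at 1.53 to 3.79 FPKM in the MOLM-13 controls, while its partner CD3E was at or near 0 in all 12. The sum of the 10 markers was 25.0 to 27.1 FPKM in MOLM-13 controls, 24.9 to 28.6 with JOA, 25.5 to 27.2 in THP-1 controls and 29.9 to 34.3 with JOA, most of it PECAM1, and 4 or 5 of the 10 were at 0 in every library of a group, the red cell gene HBB in all 12 libraries. The part of CD3D, KRT18 or PECAM1 in the results below was not tested.

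On GRCh38 with the GENCODE 29 annotation, BAX lies on chromosome 19 (48954815 to 48961798, plus strand), and BBC3 lies on the same chromosome (47220822 to 47232766, minus strand). BAK1 lies on chromosome 6 (33572547 to 33580293, minus strand). Among the anti-apoptotic genes, BCL2 spans 63123346 to 63320128 on the minus strand of chromosome 18, MCL1 spans 150574551 to 150579738 on the minus strand of chromosome 1, BCL2L1 spans 31664452 to 31723989 on the minus strand of chromosome 20, and BCL2A1 spans 79960889 to 79971446 on the minus strand of chromosome 15. Of the remaining BH3-only genes, PMAIP1 lies on chromosome 18 (59899948 to 59904306, plus strand), BCL2L11 on chromosome 2 (111119378 to 111168447, plus strand) and BID on chromosome 22 (17734138 to 17774770, minus strand). None of the 10 overlaps another protein-coding gene, but 7 overlap a noncoding gene or pseudogene. BCL2L1 overlaps the antisense gene ABALON, BCL2L11 overlaps MIR4435-2HG on the other strand, and MCL1 overlaps ADAMTSL4-AS1 on its own strand. The kit keeps strand, but the strand setting of the counting is not given in the sources used here. FPKM per gene also merges isoforms, so the long and short forms of BCL2L1, MCL1 and BCL2L11, which can act in opposite or unequal ways, are not separated.

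The promoters of BAX and BBC3 are shown because these members stood furthest apart between the lines (below), and that of PMAIP1 because it is a BH3-only gene that was not called between them. The sequences are the 250 bases before the RefSeq start (build GRCh38.p14), written 5′ to 3′ on the gene's own strand. BAX is from chr19:48954625-48954874 on the plus strand and BBC3 from chr19:47232668-47232917 on the minus strand, both with capitals at CACGTG, the E-box bound by MYC and related factors. PMAIP1 is from chr18:59899746-59899995 on the plus strand, with capitals at GGGCGG or its complement, the GC box bound by SP1.
BAX: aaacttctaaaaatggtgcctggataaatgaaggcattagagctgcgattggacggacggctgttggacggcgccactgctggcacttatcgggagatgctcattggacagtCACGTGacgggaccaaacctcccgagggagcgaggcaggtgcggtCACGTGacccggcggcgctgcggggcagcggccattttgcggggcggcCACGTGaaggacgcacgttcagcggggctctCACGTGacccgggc
BBC3: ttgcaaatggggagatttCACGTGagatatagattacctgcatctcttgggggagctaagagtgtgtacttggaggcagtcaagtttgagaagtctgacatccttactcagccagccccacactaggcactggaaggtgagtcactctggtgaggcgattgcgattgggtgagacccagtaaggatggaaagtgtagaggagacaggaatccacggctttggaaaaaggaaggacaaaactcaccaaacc
PMAIP1: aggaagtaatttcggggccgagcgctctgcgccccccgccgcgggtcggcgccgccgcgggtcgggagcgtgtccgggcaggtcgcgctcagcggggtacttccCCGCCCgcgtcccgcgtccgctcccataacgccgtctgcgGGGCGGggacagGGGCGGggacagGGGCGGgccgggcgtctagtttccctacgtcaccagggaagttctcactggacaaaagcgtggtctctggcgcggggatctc
GENCODE places the outermost start of each gene further upstream, so 60, 99 and 48 of the printed bases of BAX, BBC3 and PMAIP1 lie inside the GENCODE gene.

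Of the 10 genes, 9 matched at least 1 RefSeq promoter window by symbol, and 7 had exactly 1. In those 7, both strands were searched for 8 motifs over 300 bases, from 250 before to 50 after the start. The BAX window held 4 CACGTG motifs, whose first bases lie at positions -138, -93, -45 and -14 relative to the start. Of 35116 promoter windows of this length, 7.26% held at least 1 such motif, and 5 windows (0.0142%) held 4 or more. BBC3 held 1, at position -232, and 1 TGANTCA motif (the AP-1 element), which 7.71% of all windows hold. The windows of BCL2, BCL2A1, BAK1, PMAIP1 and BCL2L11 held no CACGTG. Of these genes, BCL2 and BCL2A1 were also called lower in THP-1 controls (below). PMAIP1 held 4 GC boxes, BCL2L11 3, and BAX and BAK1 2 each, and 45.0% of all windows held at least 1. The share of windows with 4 or more GC boxes was not counted. BAX also held TGACNNNGC, the core of the electrophile response element bound by NRF2, at position -89, where it overlaps a CACGTG motif, and 13.3% of all windows hold that core. These are letter matches in short windows and carry no measurement of binding. A link between these motifs and the levels below was not tested.

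Among the anti-apoptotic genes, MCL1 had the highest level in both lines and BCL2A1 the lowest. MCL1 read 75.1, 76.9 and 76.8 FPKM in the 3 MOLM-13 controls and 73.8, 80.5 and 81.3 with JOA. In THP-1 it read 113, 108 and 124 FPKM in control cells and 120.5, 120.4 and 130.1 with JOA. Every THP-1 library was above every MOLM-13 library, and within each line the control and JOA values overlapped.

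BCL2 showed the opposite order between the lines. Its values were 16.8, 21.5 and 19.9 FPKM in MOLM-13 controls and 17.4, 18.7 and 17.7 with JOA. In THP-1 they were 9.05, 8.40 and 8.14 FPKM in controls and 7.87, 8.46 and 7.94 with JOA, so that no THP-1 library came near a MOLM-13 library. BCL2L1 read 5.10, 5.23 and 4.66 FPKM in MOLM-13 controls against 5.55, 5.25 and 5.13 with JOA, and 6.42, 6.21 and 6.53 in THP-1 controls against 6.73, 6.71 and 7.25 with JOA. The THP-1 values of BCL2L1 did not overlap between control and JOA, although they differ by little.

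BCL2A1, a gene that NF-kB induces in myeloid cells, was the scarcest of the 10 by group mean. Its FPKM was 1.34, 2.25 and 1.85 in MOLM-13 controls and 1.62, 1.44 and 2.01 with JOA, which overlap. In THP-1 it was 0.452, 0.674 and 0.643 FPKM in controls and 0.890, 0.986 and 1.85 with JOA. All 3 JOA libraries lay above all 3 controls, and replicate 3 of the JOA group stood well above the other two.

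**Figure D1:**
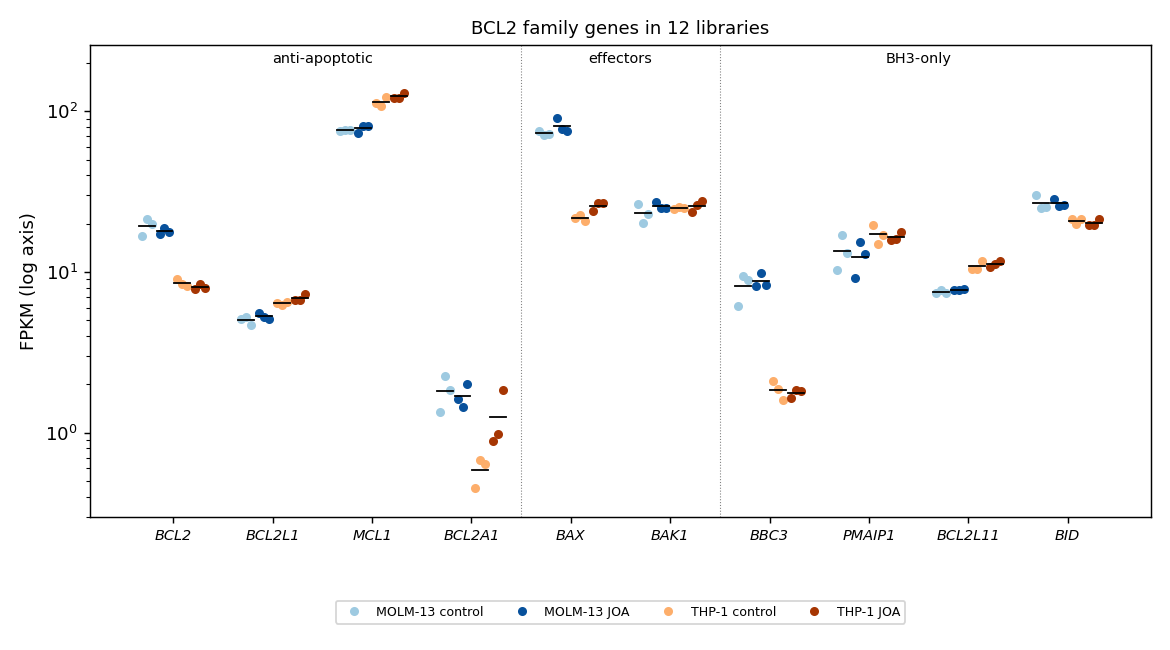
FPKM of the 10 genes (log axis) in each library, with points for the 3 libraries of a group, short black lines for group means and dotted lines between the anti-apoptotic, effector and BH3-only genes. MCL1 sits above 100 FPKM in THP-1, BAX sits at 70.8 to 90.4 FPKM in MOLM-13 and at 20.8 to 27.0 FPKM in THP-1, and BCL2A1 has the lowest group means.

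As a share of the summed FPKM of the 4 anti-apoptotic genes, MCL1 made up 74.5% ± 1.87 (SD, n = 3) in MOLM-13 controls and 88.1% ± 0.774 in THP-1 controls. BCL2 made up 18.9% ± 1.65 and 6.57% ± 0.621 of it, and BCL2A1 1.76% ± 0.384 and 0.453% ± 0.0968. The share of BCL2L1 was 4.88% ± 0.339 in MOLM-13 and 4.91% ± 0.175 in THP-1, and its 3 values overlapped between the lines. With JOA, MCL1 made up 75.9% ± 0.769 in MOLM-13 and 88.4% ± 0.219 in THP-1, overlapping the controls of the same line. The ratio of MCL1 to BCL2 was 3.97 ± 0.459 in MOLM-13 controls and 13.5 ± 1.46 in THP-1 controls. These shares describe mRNA, and the proteins differ in stability, MCL1 being known for a very short half-life.

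**Figure D2:**
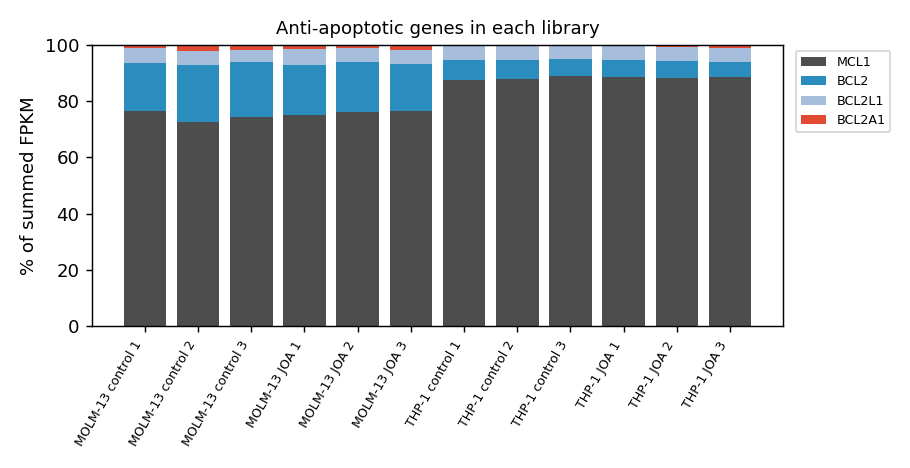
Share (%) of the summed FPKM of MCL1, BCL2, BCL2L1 and BCL2A1 in each of the 12 libraries. MCL1 takes 72.7% to 76.6% in the MOLM-13 libraries and 87.6% to 89.0% in the THP-1 libraries, and the shares of BCL2 and BCL2A1 are larger in MOLM-13.

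The effectors differed in how far apart the lines were. BAX read 75.6, 70.8 and 72.0 FPKM in MOLM-13 controls and 90.4, 78.0 and 75.9 with JOA. In THP-1 it read 21.7, 22.5 and 20.8 FPKM in controls and 23.8, 27.0 and 26.9 with JOA. In both lines every JOA library was above every control library, in MOLM-13 by a narrow margin between 75.6 and 75.9. BAK1 read 26.7, 20.2 and 23.0 FPKM in MOLM-13 controls, 27.3, 25.0 and 24.9 with JOA, 24.6, 25.5 and 24.9 in THP-1 controls and 23.7, 26.3 and 27.6 with JOA, so that all 4 groups overlapped. The ratio of BAX to BAK1 was therefore 3.16 ± 0.339 in MOLM-13 controls and 0.867 ± 0.0266 in THP-1 controls, and 3.16 ± 0.136 and 1.00 ± 0.0255 with JOA (SD, n = 3). The ratio did not overlap between control and JOA in THP-1, and did so in MOLM-13.

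Among the BH3-only genes, BID was the most abundant in each group and BBC3 was the only 1 called between the control libraries of the lines. BBC3, which encodes the potent killer protein PUMA, read 6.16, 9.41 and 8.94 FPKM in MOLM-13 controls and 8.21, 9.84 and 8.28 with JOA. In THP-1 it read 2.09, 1.86 and 1.60 FPKM in controls and 1.65, 1.84 and 1.81 with JOA. The lines did not overlap, and control and JOA overlapped within each. PMAIP1, whose product NOXA binds MCL1, read 10.3, 16.9 and 13.2 FPKM in MOLM-13 controls and 9.24, 15.3 and 12.9 with JOA, with replicate 1 lowest and replicate 2 highest in both. In THP-1 it read 19.7, 14.9 and 17.0 FPKM in controls and 15.7, 16.1 and 17.7 with JOA, and its controls overlapped both those and the MOLM-13 controls.

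BCL2L11, which encodes the broad BCL2 antagonist BIM, varied little between libraries of a group. It read 7.43, 7.72 and 7.44 FPKM in MOLM-13 controls, 7.70, 7.69 and 7.89 with JOA, 10.5, 10.5 and 11.8 in THP-1 controls and 10.8, 11.3 and 11.7 with JOA. BID, which links death receptors to mitochondria after caspase 8 cleaves it, read 29.9, 25.1 and 25.3 FPKM in MOLM-13 controls, 28.4, 25.7 and 26.2 with JOA, 21.3, 19.8 and 21.5 in THP-1 controls and 19.6, 19.5 and 21.2 with JOA. For both genes the lines stood apart and the treatment groups overlapped.

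By mean FPKM in MOLM-13 controls, the order was MCL1, BAX, BID, BAK1, BCL2, PMAIP1, BBC3, BCL2L11, BCL2L1 and BCL2A1. Neighbours whose libraries overlapped were MCL1 with BAX, BID with BAK1, BAK1 with BCL2, BCL2 with PMAIP1, and BBC3 with BCL2L11. In THP-1 controls the order was MCL1, BAK1, BAX, BID, PMAIP1, BCL2L11, BCL2, BCL2L1, BBC3 and BCL2A1, and of these neighbours only BAX and BID overlapped. MCL1 thus stood level with BAX in MOLM-13 and 4.60 times above the next gene, BAK1, in THP-1 controls. With JOA, BAX and MCL1 overlapped at the head of the MOLM-13 order, and in THP-1 BAX overlapped BAK1 and BBC3 overlapped BCL2A1.

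The first comparison asks whether JOA altered the mRNA of these genes in MOLM-13. No member was called: by limma over 11693 genes, the log2 fold changes ran from -0.11 for PMAIP1 to 0.16 for BAX, each with an adjusted p of 1.00. A gene was called when its p, adjusted by Benjamini-Hochberg over all genes, was under 0.05 and its log2 fold change was 0.58 or more in size, and 0% of all genes met both. No member reached an unadjusted p under 0.05, while 481 genes (4.11%) did. BAX, the pore former, had the smallest p of the 10 (log2 fold change 0.16 ± 0.08 SE, 95% interval -0.02 to 0.33, unadjusted limma p of 0.0743), and its JOA library was above the control in 3 of 3 same-numbered pairs. It was 1 of 10 members whose groups did not overlap, against 9.65% of all genes tested. The exact two-sided permutation test gave p = 0.1 for BAX, the smallest that 3 libraries against 3 allow. BCL2L1 and BAK1 were also higher with JOA in 3 of 3 same-numbered pairs, and PMAIP1 was lower in 3 of 3. The share of all genes whose 3 pairs agree was not counted in either line.

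The width of the intervals shows how closely each change was measured in MOLM-13. The 95% intervals, taken without adjustment, ran from -0.10 to 0.18 on the log2 scale for MCL1, from -0.32 to 0.11 for BCL2, from -0.09 to 0.26 for BCL2L1 and from -0.10 to 0.18 for BCL2L11. The widest were those of PMAIP1 (-0.59 to 0.38), BCL2A1 (-0.52 to 0.37) and BBC3 (-0.24 to 0.48). BAK1 had a log2 fold change of 0.15 ± 0.10 (SE) and BID of 0.00 ± 0.08, and the latter took a negative sign under both rescalings of the libraries. Control and JOA libraries of the same replicate number deviated together (r = 0.398, 0.264 and 0.303), against -0.256 to 0.0168 for unlike numbers. Deviations were taken from each group's mean, so positive r for like numbers entail lower r for unlike numbers. The sample titles give the numbers alone, so a pairing by replicate number is an assumption. In a fit blocked on that number, BAX had an unadjusted p of 0.0131 and BAK1 of 0.0368, with adjusted limma p of 0.356 and 0.418, so no member was called either way.

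The same comparison in THP-1 at the higher dose also called no member without the block. BCL2A1 had the largest log2 fold change of the 10, 0.91 ± 0.27 (SE), a fold of 1.88 on the log2(FPKM + 0.1) scale (95% interval 1.22 to 2.88), with an unadjusted limma p of 0.00972 and an adjusted p of 0.153. BAX followed with 0.25 ± 0.06, a fold of 1.19 (1.08 to 1.32), with an unadjusted p of 0.00418 and an adjusted limma p of 0.113. Over all 12712 genes tested, 0.134% were called, 7 higher and 10 lower. An unadjusted p under 0.05 was reached by 2 of the 10 members and by 2146 genes (16.9%).

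For BCL2A1, the JOA library was above the control in 3 of 3 pairs, by 0.84, 0.49 and 1.40 on the log2 scale. THP-1 libraries of the same replicate number also deviated together (r = 0.282, 0.139 and 0.319), against -0.259 to -0.0280 for unlike numbers. As in MOLM-13, the values for unlike numbers are no separate sign of pairing. Pairing by replicate number is again an assumption, on which the blocked results rest. In a fit blocked on that number, BCL2A1 passed as higher with JOA, with an adjusted limma p of 0.0287, and it was the only 1 of the 10 called, against 1.27% of all genes called in that fit (161 genes, 81 higher and 80 lower). Unadjusted limma p under 0.05 in that fit were those of 3 members (BCL2A1, BAX and MCL1), beside 3307 of 12712 genes. BAX reached an adjusted limma p of 0.0335 with the block but lies below the fold required. Without pair 2 or pair 3 its adjusted p was 0.103. Without replicate pair 3, the pair with the highest JOA value, the blocked log2 fold change of BCL2A1 was 0.67 and its adjusted p 0.0674. Without pairs 1 and 2 in turn it was 0.94 and 1.12, with adjusted p of 0.0332 and 0.00925. Without JOA replicate 3 alone and with no block, the log2 fold change was 0.60, and a pseudocount of 1 in place of 0.1 gave 0.47.

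The remaining members differed little in THP-1. MCL1 and BCL2L1 both had a log2 fold change of 0.11 ± 0.06 (SE), with intervals from -0.04 to 0.25. Each was higher with JOA in 3 of 3 pairs, while BID was lower in 3 of 3. With BCL2A1, BAX and BCL2L1, 3 of 10 members did not overlap between control and JOA, against 23.4% of all genes tested, a share close to the background. BCL2 had a log2 fold change of -0.08 ± 0.06, BBC3 -0.06 ± 0.12, BID -0.06 ± 0.06 and PMAIP1 -0.05 ± 0.10. BAK1 and BCL2L11 had 0.05 ± 0.06 and 0.05 ± 0.07. The members' median was 0.05, beside 0.02 over all genes tested in THP-1, and 0.04 beside 0.01 in MOLM-13.

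**Figure D3:**
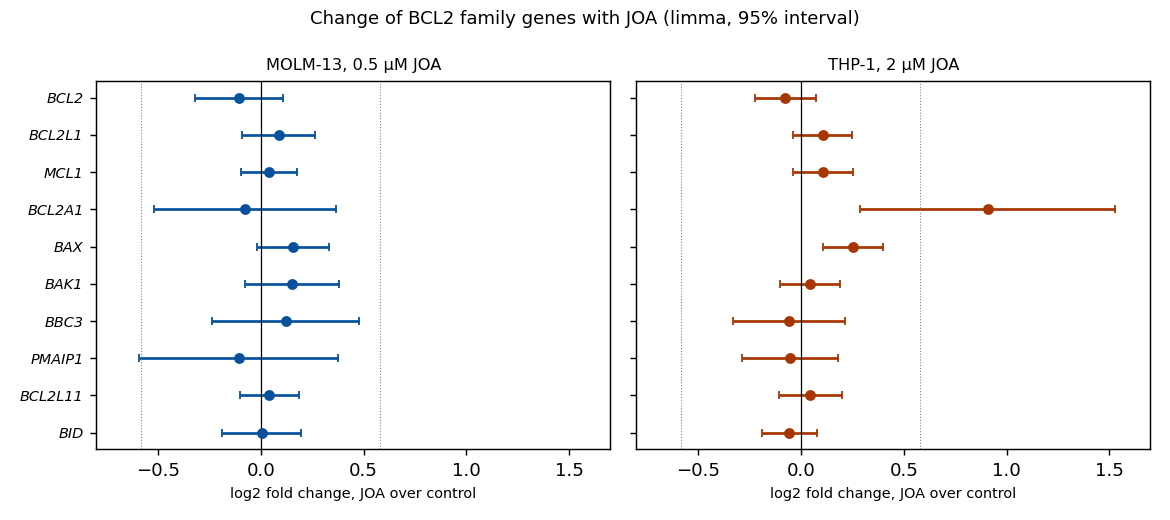
Log2 fold change of each gene with JOA over control in MOLM-13 (left) and THP-1 (right), as points with 95% limma intervals, and dotted lines at the fold required for a call (0.58). All 10 intervals in MOLM-13 include 0, and in THP-1 those of BCL2A1 (0.29 to 1.53) and BAX (0.11 to 0.40) do not.

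Whether the response differed between the lines was tested as an interaction over all 12 libraries, in which line and dose differ together. No member was called, and 0% of 12626 genes were. BCL2A1 had the largest difference, 0.98 ± 0.36 (SE) on the log2 scale higher in THP-1, with an unadjusted limma p of 0.0190 and an adjusted p of 0.593 (0.177 with the block). It was the only 1 of the 10 with an unadjusted p under 0.05, which 914 genes (7.24%) reached. BAX, with log2 fold changes of 0.16 in MOLM-13 and 0.25 in THP-1, had a difference of 0.10 ± 0.10 (95% interval -0.13 to 0.32), and the other differences lay between -0.18 for BBC3 and 0.07 for MCL1.

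**Figure D4:**
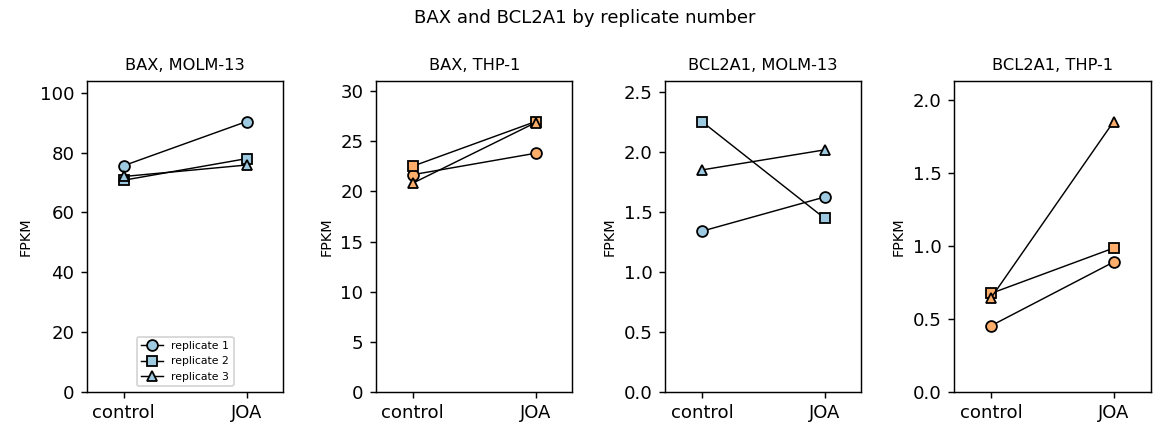
FPKM of BAX and BCL2A1 in control and JOA libraries of each line, with lines joining libraries of the same replicate number. BAX is higher with JOA in 3 of 3 pairs of each line, while BCL2A1 is higher in 3 of 3 pairs of THP-1 and in 2 of 3 of MOLM-13.

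The control libraries of both lines were then compared, which shows the state of the family in DMSO-treated cells without JOA. THP-1 had less BAX, BBC3, BCL2 and BCL2A1 mRNA than MOLM-13 and more MCL1. BBC3 was 4.20 times lower in THP-1 on the log2(FPKM + 0.1) scale (log2 fold change -2.07 ± 0.17 SE, adjusted p = 1.27e-05 by limma), and BAX was 3.35 times lower (-1.74 ± 0.06, adjusted p = 1.15e-07 by limma). BCL2A1 was 2.75 times lower (-1.46 ± 0.21) and BCL2 was 2.25 times lower (-1.17 ± 0.10), with adjusted limma p of 0.000340 and 1.36e-05. With a pseudocount of 1, the log2 fold change of BCL2A1 was -0.81 and still called. MCL1 was 1.50 times higher (0.59 ± 0.06, adjusted p = 6.03e-05 by limma).

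These 5 calls among 10 members stand beside 44.0% of all 12635 genes called in this comparison, so the share is near the background. The 1 member called higher stands beside 25.0% of all genes and the 4 called lower beside 19.0%. The groups of 8 members did not overlap, against 74.8% of all genes. The lines also differ in origin and culture history, and with 1 line of each kind a difference between lines cannot be told apart from a difference between these cultures. The control libraries are the same as in the JOA comparisons.

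The other 5 members were not called, for differing reasons. BCL2L11 (0.53 ± 0.07, SE), BCL2L1 (0.35 ± 0.08) and BID (-0.35 ± 0.08) had adjusted limma p of 0.000236, 0.00339 and 0.00466 but lay below the fold required. BAK1 had a log2 fold change of 0.11 ± 0.10 (95% interval -0.11 to 0.33) and PMAIP1 of 0.37 ± 0.17 (-0.03 to 0.77), with adjusted limma p of 0.332 and 0.0884. MCL1 and BCL2L11 lie on either side of the fold required. MCL1 was just under it without MOLM-13 control replicate 1 (0.577) or THP-1 control replicate 3 (0.53), and BCL2L11 passed it when libraries were rescaled to equal sums (0.61).

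**Figure D5:**
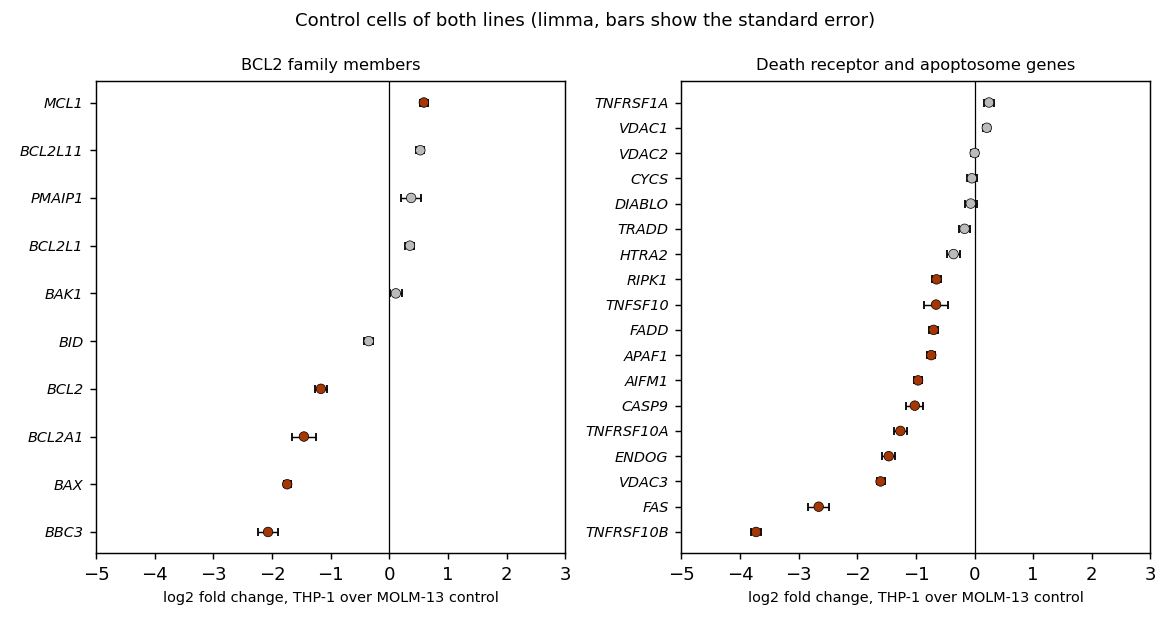
Log2 fold change of THP-1 over MOLM-13 control libraries, as points with the limma standard error. The 10 family members are on the left. On the right are the tested genes of the death receptor pathway and of the apoptosome and mitochondrial release. Dark orange points are called and grey points are not. BBC3, BAX, BCL2A1 and BCL2 are called lower in THP-1 and MCL1 higher. On the right, 6 of 8 death receptor genes and 5 of 10 genes of the apoptosome and mitochondrial release are called lower. Over all genes tested, 19.0% are called lower and 25.0% higher.

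Among 13 further BCL2 family genes, 9 were tested between the lines, of which 1 was higher in THP-1 and 3 were lower (median log2 fold change -0.45, beside 0.06 over all genes). The shares over all genes were 25.0% called higher and 19.0% called lower. BOK, an effector related to BAX, read 1.02, 1.11 and 0.867 FPKM in THP-1 controls and at most 0.0462 in MOLM-13 controls. It is the gene counted as higher, but it passed the filter on low values through the THP-1 libraries alone and its fitted fold depends on the pseudocount, so no fold is given. The BH3-only gene BMF was lower in THP-1 (-1.50 ± 0.15), as was the mitophagy receptor gene BNIP3L (-1.09 ± 0.18). With JOA none of the 8 tested in MOLM-13 and none of the 9 tested in THP-1 was called. The smallest p were those of BMF in MOLM-13 (-0.15 ± 0.17, unadjusted limma p of 0.404) and BOK in THP-1 (0.44 ± 0.12, unadjusted p of 0.00711, adjusted p = 0.136).

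Of 10 genes of the apoptosome and of mitochondrial release, 5 were lower in THP-1 controls and 0 were higher (median log2 fold change -0.55). Beside this and the next 2 lists, 19.0% of all genes were called lower and 25.0% higher. The 5 lower genes include the mitochondrial channel gene VDAC3 (-1.60 ± 0.07 SE), the nuclease gene ENDOG (-1.46 ± 0.11) and CASP9 (-1.02 ± 0.15), the initiator caspase of the apoptosome. Of 8 other caspase and nuclease genes, 2 were lower, DFFB (-0.84 ± 0.08) and CASP6 (-0.60 ± 0.14), with a list median of -0.11. Of 6 tested inhibitors of apoptosis NAIP alone was called (-0.65 ± 0.19, lower), with a list median of 0.06. NAIP read 0.517 to 0.713 FPKM in MOLM-13 controls and 0.256 to 0.419 in THP-1 controls, so its fitted fold depends on the pseudocount. With JOA none of the genes of these lists was called. The smallest p in MOLM-13 were those of CASP9 (0.33 ± 0.12, unadjusted limma p of 0.0243), CASP2 (-0.14 ± 0.07, p of 0.103) and XIAP (0.12 ± 0.08, p of 0.170). In THP-1 they were those of ENDOG (-0.13 ± 0.07, unadjusted limma p of 0.128), CASP8 (0.14 ± 0.08, p of 0.103) and NAIP (0.47 ± 0.18, p of 0.0308).

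The death receptor pathway reaches BAX and BAK1 through BID. Of its 8 tested genes, 6 were called lower in THP-1 controls (median log2 fold change -0.68), against 19.0% of all genes. The list was not tested as a set. TNFRSF10B, a receptor for the ligand TRAIL, read 37.1, 41.1 and 41.3 FPKM in MOLM-13 controls and 2.65, 3.11 and 3.01 in THP-1 controls (-3.73 ± 0.08 SE). FAS (-2.66 ± 0.18) and TNFRSF10A (-1.26 ± 0.12) were also lower. FAS read 0.173, 0.114 and 0.129 FPKM in THP-1 controls, close to the pseudocount of 0.1, so its fitted fold depends on the pseudocount. With JOA 0 of 8 were called in each line, the smallest p being those of TNFRSF1A in MOLM-13 (0.13 ± 0.07, unadjusted limma p of 0.123) and TRADD in THP-1 (0.22 ± 0.08, unadjusted p of 0.0249, adjusted p = 0.223).

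Of 12 transcription factors known to control family genes, 5 were higher and 3 lower in THP-1 controls (median log2 fold change -0.11), among them TP73 (2.91 ± 0.15 SE, higher) and STAT5A (-1.71 ± 0.16). These counts stand beside 25.0% of all genes called higher and 19.0% called lower. TP73 read 0.331, 0.331 and 0.493 FPKM in MOLM-13 controls, so its fitted fold depends on the pseudocount. With JOA none of the 12 was called. DDIT3, the stress factor CHOP that can induce BCL2L11 and BBC3, read 10.7, 10.4 and 10.5 FPKM in THP-1 controls and 13.9, 13.3 and 13.9 with JOA. The log2 fold change, 0.38 ± 0.05, passed by its adjusted limma p of 0.0394 but lay below the fold required, and beside it BCL2L11 and BBC3 had the values given above, 0.05 and -0.06. In MOLM-13 the smallest p of this list was that of NFKB1 (-0.11 ± 0.06, unadjusted limma p of 0.104).

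Of 6 tested genes that govern MCL1 protein turnover, 2 were higher in THP-1 controls and 1 was lower (median log2 fold change 0.14). Again, 25.0% of all genes were called higher and 19.0% lower. The deubiquitinase gene USP13, whose product stabilises MCL1, was higher (1.26 ± 0.07 SE), as was DUSP6 (0.94 ± 0.21), a phosphatase of ERK, a kinase that phosphorylates MCL1. HUWE1, a ubiquitin ligase for MCL1, was lower (-0.67 ± 0.07). None was called with JOA, the smallest p being those of BTRC in MOLM-13 (-0.09 ± 0.11, unadjusted limma p of 0.428) and HUWE1 in THP-1 (-0.10 ± 0.06, p of 0.122). MCL1 protein was not measured in these libraries.

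For each member, the genes whose pattern over the 12 libraries was most like it were found among 9240 genes, after each line's mean was taken off. The correlations are descriptions over libraries that share lines, treatment and replicate numbers. The named genes have the highest of 9240 correlations over 12 libraries, and such maxima can be high through selection alone. No test was made of them. BAX was most like SH3GLB2 (r = 0.94) and CD99L2 (0.93), MCL1 most like MS4A7 (0.96) and IL1RAP (0.94), and BCL2A1 most like TMEM87B (0.93) and LEPROT (0.93). PMAIP1 was most like RSL24D1 (0.96), BID most like UTP3 (0.95) and FUNDC2 (0.95), and BCL2L1 most like ZNF746 (0.93) and MAP1S (0.92). BAK1 was nearest to APH1A (0.92) and EIF4A2 (0.90), BCL2L11 to CD1D (0.93) and MTMR3 (0.91), BBC3 to PRIMPOL (0.90) and PIM1 (0.88), and BCL2 to G0S2 (0.90) and CDC42BPB (0.89). Among the members themselves the highest r was that of MCL1 with BCL2L11 (0.82) and the lowest that of BCL2 with BAK1 (-0.78).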

How the data were processed

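The 12 mRNA-seq libraries (3 per group) were read as 150 bp pairs. The authors deposited 1 table of FPKM values per gene and library. Per the labels' processing notes, Trimmomatic, HISAT2, Cufflinks, HTSeq and hg38 were used. Versions, annotation and strand setting are not given in the sources used here. The deposited FPKM values were used without further scaling.

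Genes averaging 0.1 FPKM or more over the libraries of a comparison were kept, and log2(FPKM + 0.1) was compared by limma 3.58.1 in R 4.3.3 (eBayes with a trend). A call required p under 0.05 after Benjamini-Hochberg adjustment together with a log2 fold change of 0.58 or more in size, and for the interaction the adjusted p alone. The study's count test needs counts and was not run. The members and gene lists were chosen with earlier results of these data known. From each list, up to 3 called genes with the largest change per comparison were named, or else each line's gene with the smallest p. CD3D, CD3E, KRT18 and HBB were picked after their values were seen. For each member the 2 genes with the highest correlation were named. Some listed genes and 1 gene list that fall under these rules are not reported here. Intervals for counting error need the depth in reads, which is unknown. The steps between shared low FPKM values put the other MOLM-13 libraries at 0.867 to 0.918 of the depth of control replicate 1, and those of THP-1 at 0.930 to 1.07. Shared replicate numbers come from the sample records, and control and JOA libraries of the same number deviated together in every pair. The procedure was tested on simulated data with independent noise. The planted changes were larger than any fitted for the members with JOA in the main fits. They were placed in genes at higher levels than BCL2A1 in THP-1. That simulation therefore does not bear on small changes, on scarce genes or on paired libraries. Alternatives covered the pseudocount, the filter, 2 rescalings, the trend, the replicate block, 1 fit on all libraries, the threshold and leaving out each library. The blocked fits without each replicate pair were added after the values were seen. Promoter windows came from RefSeq (GRCh38.p14) and positions from GENCODE 29, searched with Python 3.11.15.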

Additional observations from a re-analysis of the deposited data

How the results depend on the processing

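Of the member results, every direction between the control libraries held under each alternative, and the calls that moved there are those of MCL1 and BCL2L11 given above and, by adjusted p alone, those of BCL2L11, BCL2L1 and BID. In MOLM-13, keeping genes with any value above 0 gave 1 called gene in place of 0. In THP-1 the count of 17 became 8 with a pseudocount of 1, 0 with any value above 0, 1 without the trend, 51 in one fit on all libraries, 38 by adjusted p alone, and 0 to 1 when any 1 library was left out, with fewer libraries in the fit. With the replicate block it was 161, and 162, 207 and 222 without pairs 1, 2 and 3, a choice made after seeing the data. The interaction count of 0 became 1 with a pseudocount of 1, 3 with any value above 0, 1 with median-ratio rescaling, 1 with rescaling to equal sums and 6 with the replicate block. Between the lines, adjusted p alone gave 9000 genes. The block changed the call of no member other than BCL2A1. The same-numbered controls of the lines share only a number (r = 0.131, 0.0776 and 0.0698), and the block changed no member's call there.

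Signs turned only where log2 fold changes in the main fits were at most 0.18 in size, the largest being the interaction of BBC3. In MOLM-13, BID was -0.0013 with median-ratio rescaling and -0.0076 with rescaling to equal sums, and BCL2A1 was 0.19 with the block and without pair 2. The interaction of BCL2L1 was -0.0084 and that of BCL2L11 -0.025 with median-ratio rescaling. Leaving out 1 library at a time gave, in MOLM-13, -0.0680 to 0.234 for BBC3, -0.267 to 0.0881 for BCL2A1, -0.285 to 0.0924 for PMAIP1 and -0.0409 to 0.0867 for BID. In THP-1 it gave -0.154 to 0.0293 for BBC3, -0.152 to 0.0509 for PMAIP1 and -0.0023 to 0.107 for BAK1. For the interaction it gave -0.292 to 0.0104 for BBC3, -0.0475 to 0.130 for BCL2, -0.0154 to 0.0685 for BCL2L1, -0.145 to 0.232 for PMAIP1 and -0.0238 to 0.0592 for BCL2L11. BCL2A1 had no value in THP-1 with a minimum mean of 1 FPKM. The causes of these changes were not tested. Depth is unknown, and BCL2A1, under 1 FPKM in THP-1 controls, is the member on which it bears most.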
